A study of Mus musculus with 16 samples.

Results

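The microRNA (miRNA) family described here is miR-378, taken as mmu-miR-378a-3p, mmu-miR-378b and mmu-miR-378d (mmu marks mouse, left out from here on) among 941 mature mouse miRNA names in each raw read-count table. The counts came from 16 small RNA libraries: 12 of RAW264.7 cells, a mouse macrophage line from BALB/c males, and 4 of extracellular vesicles (EVs), the membrane-bound particles that cells release. Recipient cells were incubated for 8 h with EVs at 6e9 particles per mL, or with PBS in their place, then exposed for 16 h to concanavalin A (Con A), a lectin of the jack bean used to set off immune hepatitis in mice. All 4 groups of cells, with 3 libraries each, had therefore received Con A at a dose that the sources used here do not give.

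The groups of cells had received EVs from serum of Con A-treated mice (serum Con A EVs), EVs that RAW264.7 cultures shed under Con A (RAW Con A EVs) or under saline (RAW saline EVs), or PBS. The serum donors were female BALB/c mice aged 8 to 9 weeks, bled 9 h after 15 mg/kg Con A or saline given intravenously. The RAW264.7 donor cultures had 25 ug/mL Con A or saline for 24 h. Each of the 4 EV preparations, serum saline EVs included, gave 1 library. No cells received serum saline EVs, so effects of Con A in the donor mice and of serum EVs as such cannot be told apart. Nothing in the labels states that libraries of 1 group are from separate cultures, and the p-values thus reflect only the spread between these libraries, which may be technical.

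miR-378a is encoded within the gene Ppargc1b, whose product PGC-1β drives mitochondrial metabolism, and the miRNA counteracts that programme in mice. Mouse miR-378a-3p is also known from macrophages, where interleukin-4 raises it during alternative activation and it represses the kinase Akt1, and from brown fat, where it promotes expansion of the tissue. A miRNA finds its target mRNAs mainly through its seed, the bases near its 5′ end. miR-378b, miR-378c and miR-378d are products of other loci with near-identical mature sequences, whose own roles are less well known.

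Of the 3 members, miR-378b and miR-378d matched the RefSeq table of mature miRNAs (GRCm38.p6), as did the relative miR-378c, which is described beside them. The sequences are shown 5′ to 3′ because their closeness bears on how reads can be divided among the rows; capitals mark the seed, bases 2 to 8.
miR-378b: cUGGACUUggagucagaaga
miR-378c: aCUGGACUuggagucagaagc
miR-378d: aCUGGCCUuggagucagaaggu
With positions counted from 1 at the 5′ end of miR-378c, miR-378d differed from miR-378c by A6C and C21G over 21 compared bases and had 1 further base at its 3′ end. The first of these lies within the seed. miR-378b starts at position 2 of miR-378c and differed by C21A over 20 compared bases, so its seed is shifted by 1 base. The seeds of these 3 sequences were thus different. The sources used here do not say how reads that match several of these sequences were assigned, so the division of reads among the rows is uncertain.

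The mature miR-378b lies at chr11:88352839-88352858 on the plus strand, within the gene Msi2 on the opposite strand and outside its exons (GRCm38.p6 coordinates; genes from GENCODE vM21). The mature miR-378c lies at chr14:46954905-46954925 on the minus strand, within Samd4 on the opposite strand and outside its exons. The mature miR-378d lies at chr10:126710355-126710376 on the minus strand and overlaps no other annotated gene.

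Depth was 174510 to 403332 miRNA reads per cell library and 114791 to 334285 per EV library. All 6 macrophage miRNAs looked at had reads in every cell library. So did the 2 endothelial miRNAs, so the presence of reads cannot check the macrophage label. The RAW Con A EV library stood apart from its label: 20.8% of its reads were miR-122-5p, the defining hepatocyte miRNA, at 208038 CPM (reads scaled to the same total of miRNA reads in each library) against 3528 CPM in RAW saline EVs. Its 5 hepatocyte miRNAs summed to 288826 CPM, and the 5 summed to 854289 CPM in serum Con A EVs, 237910 CPM in serum saline EVs and 23312 CPM in RAW saline EVs. Results that rest on this library are given below beside those of the other EVs, and the part of hepatocyte miRNAs in them was not tested.

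miR-378a-3p was the dominant member in cells and ranked between 10 and 12 among miRNAs by read count in the 12 cell libraries, with 3407 to 7712 reads. miR-378d ranked between 50 and 65, with 284 to 559 reads. miR-378b was a minor row, with 38 to 82 reads and a rank between 109.5 and 135. miR-378c had 137 to 315 reads. All 3 members passed the filter on low counts.

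Across the groups of cells, the family was lowest after serum Con A EVs and highest after RAW saline EVs. In TMM-scaled CPM, miR-378a-3p stood at 16553, 16747 and 14699 in cells given serum Con A EVs, at 20321, 18856 and 18077 after RAW Con A EVs, at 19456, 21293 and 19876 after RAW saline EVs, and at 17266, 18203 and 17017 in PBS cells. All serum Con A EV libraries lay below all libraries of the other groups, and all RAW saline EV libraries lay above the PBS libraries. The RAW Con A EV libraries overlapped both RAW saline EV and PBS libraries. The group means were 15999.6 ± 1130.4, 19085 ± 1139, 20208 ± 963 and 17495 ± 626 CPM in that order (SD, n = 3 each). In bulk RNA, fewer cells that express a miRNA and less of it per cell cannot be told apart.

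miR-378d followed the same order of means. Its TMM-scaled CPM was 1219.5, 1167 and 1213 after serum Con A EVs, 1694, 1350.2 and 1448 after RAW Con A EVs, 1869, 1543 and 1649 after RAW saline EVs, and 1510.3, 1445 and 1339.7 in PBS cells. The serum Con A EV libraries were the lowest 3 of the 12, and RAW Con A EV libraries overlapped those of RAW saline EVs and of PBS. Means were 1199.9 ± 28.4, 1498 ± 177, 1687 ± 166 and 1432 ± 86.1 CPM (SD, n = 3 each).

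miR-378b made up 0.921% to 1.11% of the summed reads of the 3 members on group means. It stood at 176, 155 and 148 CPM after serum Con A EVs, at 227, 212 and 177 CPM after RAW Con A EVs, at 281, 226 and 227 CPM after RAW saline EVs, and at 183, 178 and 169.8 CPM in PBS cells. Serum Con A EV and PBS libraries overlapped, as did RAW Con A EV and PBS libraries. Means were 159.8 ± 14.6, 205 ± 25.3, 245 ± 31.1 and 177 ± 6.58 CPM (SD, n = 3 each).

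**Figure D1:**
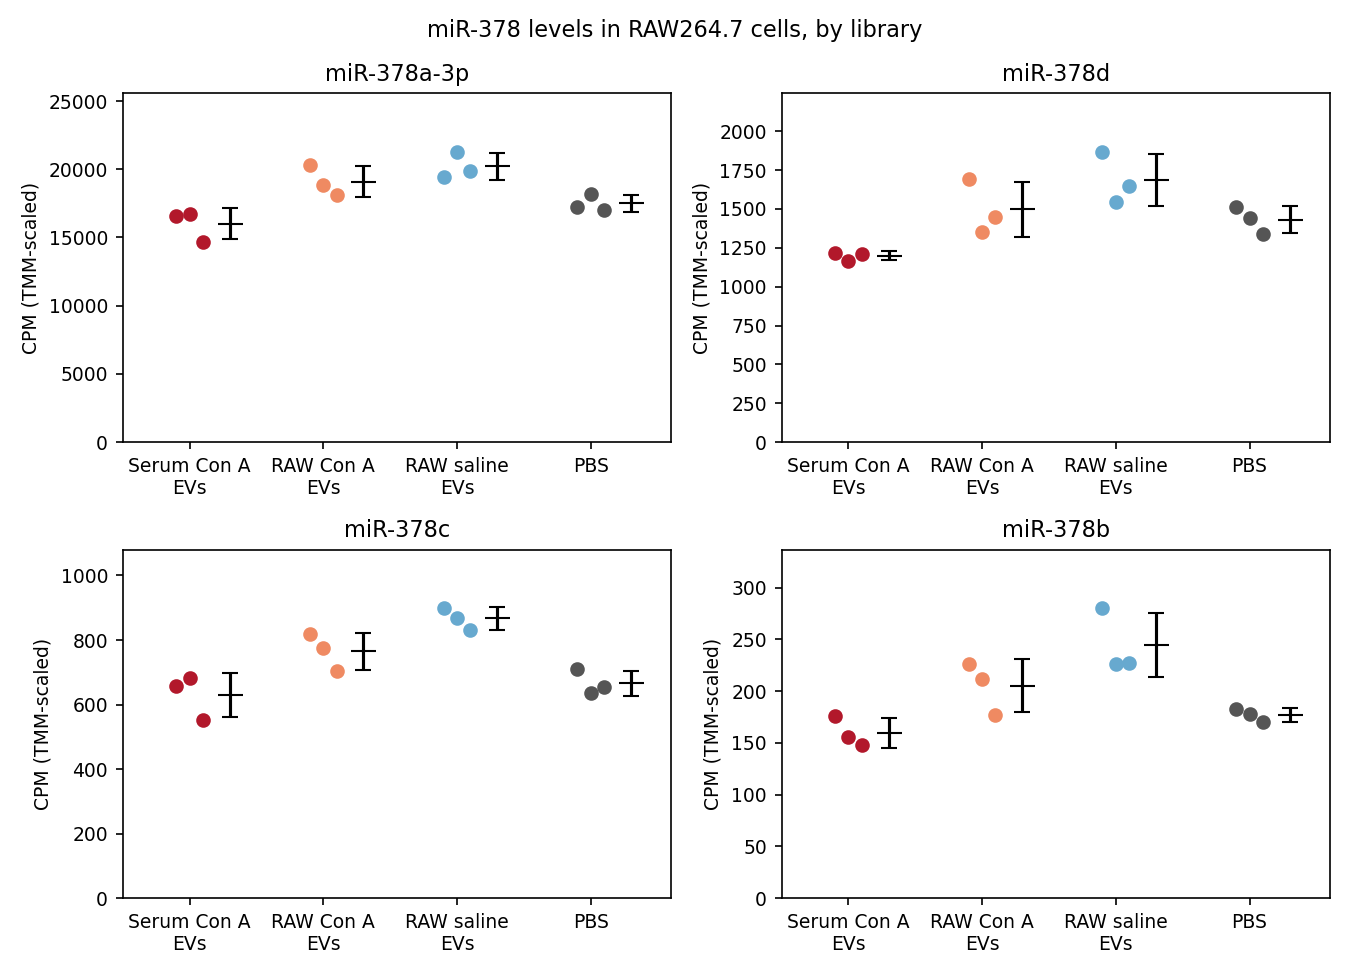
TMM-scaled CPM (y axis, from 0) of miR-378a-3p, miR-378d, miR-378c and miR-378b in each RAW264.7 library, by what the cells received before Con A (x axis). Points are libraries and the bars to their right give the mean and SD of 3 libraries; the serum Con A EV group has the lowest mean in each panel (15999.6 CPM for miR-378a-3p) and the RAW saline EV group the highest (20208 CPM).

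After serum Con A EVs, against PBS, miR-378d fell by 0.25 on the log2 scale (SE 0.083, edgeR adjusted p = 0.0288). The 3 libraries of the serum Con A EV group were all below the 3 PBS libraries. miR-378a-3p had a log2 change of -0.13 (SE 0.061, edgeR adjusted p = 0.134) and miR-378b of -0.13 (SE 0.16, edgeR adjusted p = 0.631), neither past the threshold of 0.05. The count of members called was 1 of 3, where 21.4% of the 229 tested miRNAs were called in either direction, 7.86% higher and 13.5% lower. For miR-378a-3p and miR-378d the serum Con A EV and PBS libraries did not overlap, as for 36.2% of tested miRNAs. The miR-378d call was lost without PBS replicate 1 (adjusted p = 0.0899), without PBS replicate 2 (0.0680), without serum Con A EV replicate 1 (0.0606) and without its replicate 2 (0.104), and also with scaling by library size alone (-0.17, adjusted p = 0.128). miR-378a-3p passed the threshold when scaled by the upper quartile (-0.19, adjusted p = 0.0226) or by the authors' factors (-0.18, adjusted p = 0.0491).

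After RAW saline EVs, against PBS, the direction was the opposite. miR-378a-3p rose by 0.21 (log2; SE 0.061, edgeR adjusted p = 0.0166) and miR-378b by 0.45 (SE 0.16, edgeR adjusted p = 0.0480). miR-378d had a log2 change of 0.23 (SE 0.082, edgeR adjusted p = 0.0566), just outside the threshold, and passed with DESeq2 size factors (0.25, adjusted p = 0.0317), with the replicate block (adjusted p = 0.0294), with only the groups compared (0.0465) and without RAW saline EV replicate 2 (0.30, adjusted p = 0.0243). Thus 2 of 3 members were called higher, where 14% of tested miRNAs were called, 7.42% higher and 6.55% lower. DESeq2 called 1 of the 3 and limma-trend 2. For all 3 members the RAW saline EV libraries lay above the PBS libraries, a separation in either direction that 31.4% of tested miRNAs showed. The summed reads of the 3 rows gave a change of 0.24 (SE 0.060, edgeR adjusted p = 0.00379), with means of 22465 ± 1283 CPM after RAW saline EVs and 19031 ± 613 CPM in PBS cells (SD, n = 3 each).

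These calls depended on scaling and on single libraries. The miR-378a-3p call was lost with scaling by library size alone (0.10, adjusted p = 0.350), by the upper quartile (0.12, adjusted p = 0.169) or by the authors' factors (0.16, adjusted p = 0.0905), and without the filter on low counts (0.20, adjusted p = 0.0554). It was also lost without PBS replicate 1 (adjusted p = 0.0625), PBS replicate 3 (0.0848) or RAW saline EV replicate 2 (0.0845). The miR-378b call was lost in each of the 6 fits that left out 1 library, with adjusted p between 0.0505 and 0.131, and in 5 other fits.

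After RAW Con A EVs, against PBS, no member passed the edgeR test. The log2 changes were 0.12 for miR-378a-3p (SE 0.061, edgeR adjusted p = 0.243), 0.18 for miR-378b (SE 0.16, edgeR adjusted p = 0.630) and 0.055 for miR-378d (SE 0.084, edgeR adjusted p = 0.809). The members called were 0 of 3, also at an unadjusted p under 0.05, by DESeq2 and by limma-trend, where 11.4% of tested miRNAs were called by edgeR, 6.11% higher and 5.24% lower. No member separated the groups fully, as 25.3% of tested miRNAs did. The sign of the changes of miR-378a-3p (-0.0085) and miR-378d (-0.081) turned with scaling by library size alone. Cells given RAW Con A EVs and cells given RAW saline EVs were compared directly as well. The changes of RAW Con A over RAW saline EVs were -0.085 for miR-378a-3p (SE 0.061, edgeR adjusted p = 0.514), -0.27 for miR-378b (SE 0.16, edgeR adjusted p = 0.419) and -0.17 for miR-378d (SE 0.084, edgeR adjusted p = 0.336). Here too 0 of 3 members were called by edgeR, DESeq2 or limma-trend, with 1 at an unadjusted p under 0.05, where 3.49% of tested miRNAs were called by edgeR, 1.31% higher and 2.18% lower. The groups overlapped for all 3 members, and 16.2% of tested miRNAs had groups that did not. The rise after RAW saline EVs was therefore not shown to differ from the values after RAW Con A EVs.

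The clearest separation was between serum Con A EVs and RAW saline EVs, which differ both in source and in Con A treatment of the donors. In cells given serum Con A EVs, against cells given RAW saline EVs, all 3 members fell. The change was -0.34 (log2) for miR-378a-3p (SE 0.061, edgeR adjusted p = 2.39e-05), -0.59 for miR-378b (SE 0.15, edgeR adjusted p = 0.00244) and -0.48 for miR-378d (SE 0.083, edgeR adjusted p = 1.30e-05). This comparison called 41.5% of tested miRNAs, 22.3% as higher and 19.2% as lower. All serum Con A EV libraries lay below all RAW saline EV libraries for each member, a separation in either direction seen for 48% of tested miRNAs. The 3 members kept their calls in all 6 fits that left out 1 library. With scaling by library size alone, miR-378a-3p no longer passed (-0.15, adjusted p = 0.0855), while miR-378b (-0.40, adjusted p = 0.0306) and miR-378d (-0.29, adjusted p = 0.00584) did.

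Against RAW Con A EVs, cells given serum Con A EVs had lower miR-378a-3p (-0.25, SE 0.061, edgeR adjusted p = 0.00143) and lower miR-378d (-0.30, SE 0.084, edgeR adjusted p = 0.00498). miR-378b had a change of -0.31 (SE 0.16, edgeR adjusted p = 0.144). The 2 of 3 members called lower stand beside 34.9% of tested miRNAs called, 17.9% as higher and 17% as lower. The groups did not overlap for any of the 3, as for 46.7% of tested miRNAs. With scaling by library size alone both calls were lost, miR-378a-3p at -0.043 (adjusted p = 0.666) and miR-378d at -0.09 (adjusted p = 0.395); that scaling moved the median change of all tested miRNAs by 0.22 in this comparison, by 0.18 in serum Con A over RAW saline EVs, by -0.14 in RAW Con A EVs over PBS and by -0.10 in RAW saline EVs over PBS.

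**Figure D2:**
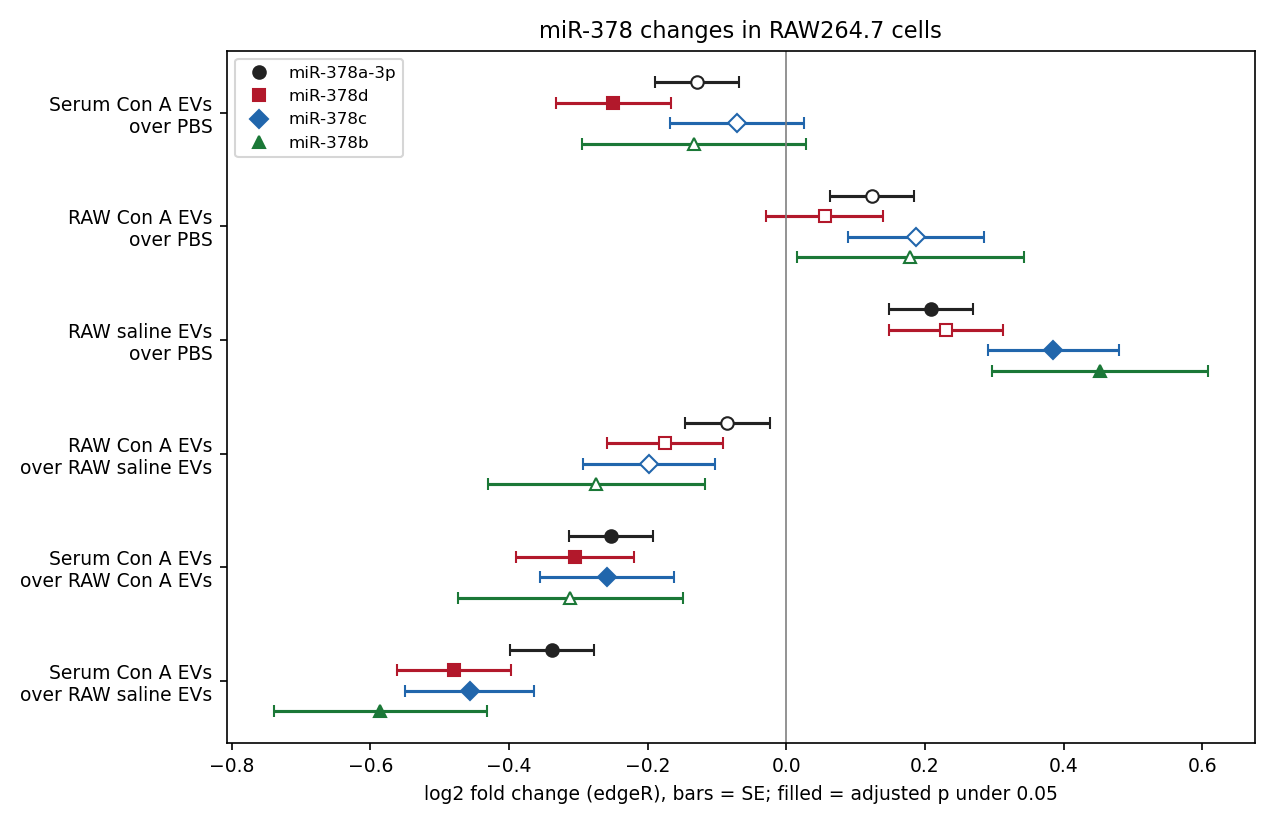
log2 fold change with its SE (x axis) of 4 miR-378 rows in the 6 comparisons of RAW264.7 groups (y axis); filled symbols have an edgeR adjusted p under 0.05. All 4 are called lower in serum Con A EV cells than in RAW saline EV cells (-0.34 for miR-378a-3p), and all but miR-378b (adjusted p = 0.144) than in RAW Con A EV cells. With library-size scaling, miR-378a-3p, miR-378d and miR-378c lost their calls against RAW Con A EVs, and miR-378a-3p against RAW saline EVs.

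The TMM factors differed with the groups: 1.07 to 1.10 after serum Con A EVs, 0.911 to 0.963 after RAW Con A EVs, 0.909 to 0.995 after RAW saline EVs and 1.02 to 1.04 in PBS cells. Markers of other cells moved with the groups too. The 6 erythrocyte miRNAs, whose defining members are miR-451a and miR-144, summed to 105 to 144 CPM of miRNA reads after serum Con A EVs, 7.44 to 24.5 CPM after RAW Con A EVs, 4.39 to 13.7 CPM after RAW saline EVs and 0 to 3.31 CPM in PBS cells, and their part in the miR-378 differences was not tested. The 5 hepatocyte miRNAs summed to 759 to 892 CPM after serum Con A EVs, 1135 to 1460.3 CPM after RAW Con A EVs, 1274 to 1848 CPM after RAW saline EVs and 1111 to 1479.8 CPM in PBS cells, but members of this list moved in opposite directions. After serum Con A EVs against PBS, miR-122-5p (3.27, edgeR adjusted p = 6.99e-11) and miR-148a-3p (3.95, edgeR adjusted p = 2.70e-12) rose, while miR-192-5p (-1.99, edgeR adjusted p = 3.21e-12) and miR-194-5p (-1.91, edgeR adjusted p = 1.13e-08) fell. The 2 endothelial miRNAs summed to 843 to 905 CPM after serum Con A EVs, 596 to 607 CPM after RAW Con A EVs, 458 to 543 CPM after RAW saline EVs and 619 to 674 CPM in PBS cells. In this CPM of all miRNA reads the 4 groups did not overlap. The order was the reverse of that of the TMM-scaled means of the miR-378 members. On the scale of the markers, miR-378a-3p averaged 17914 CPM after RAW Con A EVs and 17987 CPM in PBS cells, and miR-378d 1406 and 1472 CPM. For these members the order was thus not reversed on that scale. The part of hepatocyte and endothelial miRNAs in the miR-378 differences was not tested. Muscle is a tissue rich in miR-378a, and 5 to 8 of the 8 muscle marker rows were at 0 in each cell library.

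The relative miR-378c followed the members. Its means were 630.2 ± 68.6 CPM after serum Con A EVs, 765 ± 57.3 CPM after RAW Con A EVs, 867 ± 34.7 CPM after RAW saline EVs and 666 ± 38.7 CPM in PBS cells (SD, n = 3 each). It rose after RAW saline EVs against PBS (0.39, SE 0.095, edgeR adjusted p = 0.00330), a call kept without each library in turn but not with scaling by library size alone (0.28, adjusted p = 0.0534), and fell after serum Con A EVs against RAW saline EVs (-0.46, SE 0.093, edgeR adjusted p = 1.52e-04). Its call against RAW Con A EVs (-0.26, SE 0.097, edgeR adjusted p = 0.0341) was lost without RAW Con A EV replicate 1 (adjusted p = 0.0910), its replicate 2 (0.117) or serum Con A EV replicate 3 (0.241), and with library size alone (-0.044, adjusted p = 0.762), no filter (0.141) or DESeq2 (0.0889).

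The passenger strand miR-378a-5p, which comes from the same hairpin as miR-378a-3p, was not seen to follow it. At 41 to 108 reads per cell library, the SE of its log2 changes was 0.16 to 0.18, against 0.061 for miR-378a-3p. Changes of the size of those of miR-378a-3p could thus go unseen in miR-378a-5p. It averaged 229.8 ± 53.2 CPM after serum Con A EVs, 207 ± 38.0 CPM after RAW Con A EVs, 211 ± 21.7 CPM after RAW saline EVs and 245 ± 11.6 CPM in PBS cells (SD, n = 3 each), and passed the edgeR test in none of the 6 comparisons. Over the 12 cell libraries, the Pearson r of log2 CPM with miR-378a-3p was 0.907 for miR-378c, 0.845 for miR-378b, 0.774 for miR-378d and -0.01 for miR-378a-5p; these points share their libraries and scaling.

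Among miRNAs outside the family, the 3 with the pattern most like that of miR-378a-3p over the 12 cell libraries were miR-5099 (r = 0.909), miR-532-5p (r = 0.859) and miR-23a-3p (r = 0.838). Mean CPM of miR-23a-3p was 1507 after serum Con A EVs, 2142 after RAW Con A EVs, 2337 after RAW saline EVs and 1743 in PBS cells. Its order of groups was that of the members, but it was picked for likeness over these same libraries, so this is no separate result.

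Lists of miRNAs tied to the known settings of miR-378 were set beside it. Of 10 miRNAs of alternative macrophage activation, a list that holds miR-378a-3p itself, 6 were tested. After serum Con A EVs against PBS, 0 rose and 2 fell, miR-21a-5p (-0.18, SE 0.059, edgeR adjusted p = 0.0283) and let-7c-5p (-0.16, SE 0.057, edgeR adjusted p = 0.0419), where 7.86% of all tested miRNAs were called higher and 13.5% lower. The let-7c-5p call was lost without any 1 of the 6 libraries (adjusted p = 0.0578 to 0.171), and that of miR-21a-5p without PBS replicate 2, PBS replicate 3 or serum Con A EV replicate 1 (up to 0.139). With library size alone neither passed (adjusted p = 0.331 for let-7c-5p and 0.0747 for miR-21a-5p), nor did let-7c-5p without the filter (0.0978). After RAW saline EVs 2 rose and 0 fell, miR-378a-3p and miR-146a-5p, a restraint on toll-like receptor signalling (0.82, SE 0.067, edgeR adjusted p = 2.40e-11), where 7.42% were called higher and 6.55% lower. After RAW Con A EVs 2 rose and 0 fell, miR-146a-5p (0.92, SE 0.067, edgeR adjusted p = 1.27e-12) and miR-21a-5p (0.19, SE 0.059, edgeR adjusted p = 0.0299), where 6.11% were called higher and 5.24% lower. This miR-21a-5p call was kept without RAW Con A EV replicate 1 (adjusted p = 0.0491) and lost without each of the other 5 libraries (up to 0.152). It was also lost with library size alone (0.056, adjusted p = 0.382), upper-quartile scaling (adjusted p = 0.136), the authors' factors (0.0906) or no filter (0.320). The median changes of the list were -0.06, 0.16 and 0.12 in that order, against 0.0065, -0.0038 and -0.0096 for all tested miRNAs. Against RAW saline EVs, 4 members fell after serum Con A EVs and 0 rose, miR-378a-3p among them, where 19.2% of tested miRNAs were called lower and 22.3% higher. miR-146a-5p and miR-21a-5p, which also fell, belong to the list of inflammation-induced miRNAs described next as well. In the same comparison 1 member of that list rose and 3 fell. Of the brown and beige fat miRNAs described below, 2 rose and 2 fell.

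Of 9 inflammation-induced macrophage miRNAs 7 were tested, and the largest change was in miR-155, which promotes inflammatory activation. After serum Con A EVs 1 rose, miR-9-5p (0.26, edgeR adjusted p = 0.00193), and 3 fell, among them miR-155-5p (-2.26, SE 0.11, edgeR adjusted p = 2.54e-18), at 217 ± 13.8 CPM against 1038 ± 112 CPM in PBS cells (SD, n = 3 each), and miR-155-3p (-2.13, edgeR adjusted p = 1.13e-08), where 7.86% of tested miRNAs were called higher and 13.5% lower. After RAW saline EVs 2 rose, miR-146a-5p and miR-155-5p (0.45, edgeR adjusted p = 9.999e-05), and 1 fell, miR-155-3p (-1.43, edgeR adjusted p = 2.17e-05), where 7.42% were called higher and 6.55% lower. After RAW Con A EVs 2 rose, miR-146a-5p and miR-21a-5p, and 1 fell, miR-155-3p (-0.71, edgeR adjusted p = 0.0243), where 6.11% were called higher and 5.24% lower. This miR-155-3p call was lost without PBS replicate 3 (-0.48, adjusted p = 0.217) or any 1 of the 3 RAW Con A EV libraries (0.0544 to 0.0877), with DESeq2 (0.0850) and with limma-trend (0.0573). The list medians were -0.12, 0.04 and -0.0034 in that order.

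Of 16 brown and beige fat miRNAs 11 were tested. After serum Con A EVs against PBS 0 rose and 1 fell, miR-27b-3p (-0.24, SE 0.055, edgeR adjusted p = 0.00143), where 21.4% of tested miRNAs were called. After RAW saline EVs 0 rose and 1 fell, miR-328-3p (-0.49, SE 0.11, edgeR adjusted p = 0.00123), where 14% were called; it was lost without RAW saline EV replicate 3 (adjusted p = 0.0584). After RAW Con A EVs 1 rose, miR-27a-3p (0.19, edgeR adjusted p = 0.0299), and 2 fell, miR-328-3p (-0.49, edgeR adjusted p = 0.00375) and miR-26a-5p (-0.18, edgeR adjusted p = 0.0480), where 11.4% were called. The miR-27a-3p call was kept without RAW Con A EV replicate 1 and lost without each of the other 5 libraries (adjusted p = 0.0628 to 0.194), with library size alone (0.053, adjusted p = 0.523), upper-quartile scaling, the authors' factors and no filter. That of miR-26a-5p was lost without PBS replicates 1 or 2 or RAW Con A EV replicates 1 or 2 (adjusted p = 0.118 to 0.220), and with DESeq2 size factors, the replicate block, the authors' factors and no filter (0.0510 to 0.0709). That of miR-328-3p was lost without RAW Con A EV replicate 3 (adjusted p = 0.0544). The list medians were -0.02, -0.10 and -0.09 in that order. Of 7 miRNAs of introns of metabolic genes, a list that holds miR-378a-5p, 3 were tested. Against PBS edgeR called 0 of them, where 21.4%, 14% and 11.4% of tested miRNAs were called in that order. After serum Con A EVs, 1 rose and 0 fell against RAW Con A EVs, where 34.9% of tested miRNAs were called. Against RAW saline EVs 1 rose and 0 fell as well, where 41.5% were called.

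In the EV libraries, miR-378a-3p was again the dominant row. It had 1233 reads in serum Con A EVs (3688 CPM), 978 in serum saline EVs (7402 CPM), 4028 in RAW Con A EVs (29863 CPM) and 1849 in RAW saline EVs (16108 CPM), with ranks of 17, 28, 8 and 8. By these CPM it was thus more prominent in both RAW EV libraries than in both serum EV libraries. miR-378d had 79 reads (236 CPM) in serum Con A EVs, 28 (212 CPM) in serum saline EVs, 245 (1816 CPM) in RAW Con A EVs and 53 (462 CPM) in RAW saline EVs. miR-378b had 8, 5, 16 and 9 reads in the same order, or 23.9, 37.8, 119 and 78.4 CPM. With 1 library per preparation there is no test, and the intervals below cover counting error only; PCR reads without molecular identifiers are not independent molecules.

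**Figure D3:**
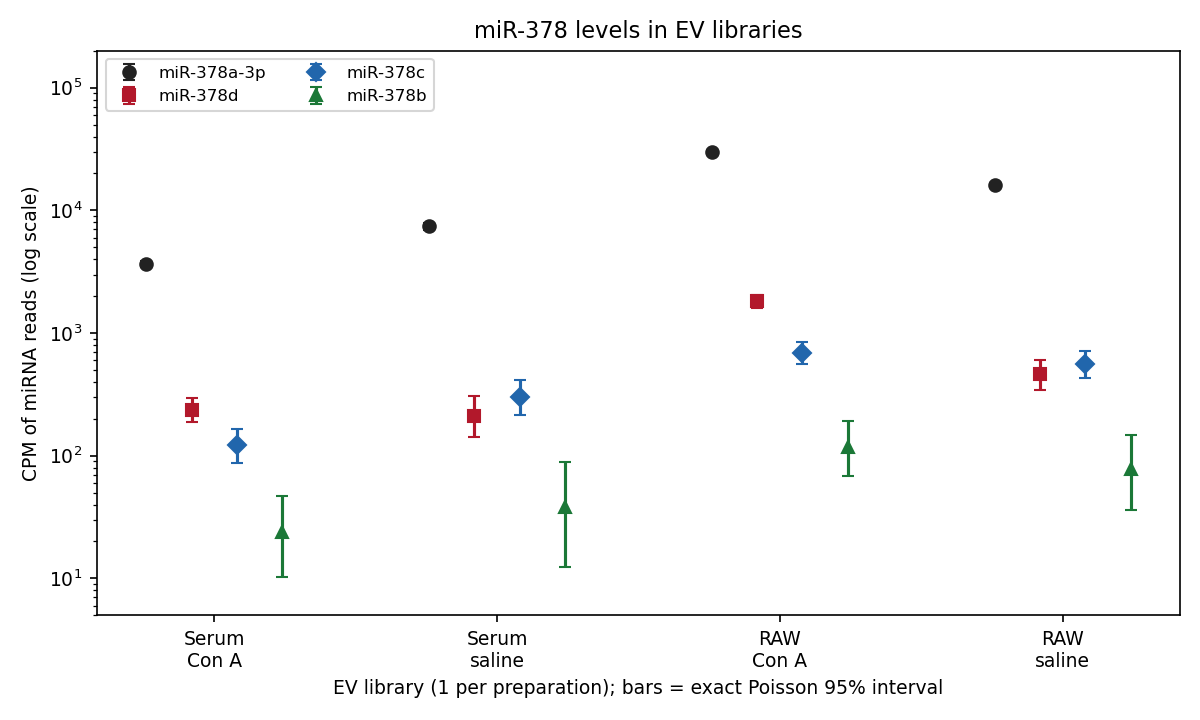
CPM of miRNA reads (y axis, log scale) of 4 miR-378 rows in each EV library (x axis), 1 library per preparation, with exact Poisson 95% intervals of the counts. By CPM miR-378a-3p has 3688 in serum Con A EVs, 7402 in serum saline EVs, 29863 in RAW Con A EVs and 16108 in RAW saline EVs; the order of the serum pair turns under TMM factors (ratio 2.28, against 0.498 by CPM) and the authors' divisors (79.4).

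Between the RAW264.7 preparations, all 3 members had higher CPM in Con A EVs than in saline EVs. The ratio was 1.85 for miR-378a-3p (95% interval 1.75 to 1.96), 3.93 for miR-378d (2.91 to 5.40) and 1.51 for miR-378b (0.630 to 3.88). The last interval includes 1, so a difference in miR-378b was not detectable at this depth. Of the 134 miRNAs whose reads in the pair summed to at least 50, 53% differed by at least 2-fold, 23.9% upwards and 29.1% downwards, and the median ratio was 0.898. miR-378d was past 2-fold and miR-378a-3p was not. Alternatives were TMM factors, the authors' divisors, and CPM without the most abundant miRNA of each library (miR-122-5p and let-7i-5p). Under these, the ratio ranged from 1.77 to 1.93 for miR-378a-3p, and it was 3.76 to 4.09 for miR-378d. The hepatocyte miRNAs in the Con A library, given above, moved with these ratios, and their part was not tested.

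Between the serum preparations, the direction depended on the scaling. By CPM, miR-378a-3p was lower in Con A EVs, at 0.498 of its level in saline EVs (0.458 to 0.543), and 0.764 of it once the most abundant miRNA was left out, but it was higher under TMM factors (2.28) and in the authors' deposited table (79.4). miR-378d had ratios of 1.12 by CPM (0.716 to 1.78), 5.10 under TMM factors and 177.75 in the authors' deposited table. miR-378b had ratios of 0.632 by CPM (0.182 to 2.46), 2.89 under TMM factors and 100.8 in the authors' deposited table, so it too changed direction. In serum Con A EVs 42.6% of reads were miR-148a-3p, against 12.0% in serum saline EVs. This was the only miRNA left out for the ratio of 0.764. miR-122-5p stayed in, at 392037 CPM in serum Con A EVs and 99538 CPM in serum saline EVs, so that ratio still depends on it. The 6 erythrocyte miRNAs summed to 25969 CPM in serum Con A EVs and 150851 CPM in serum saline EVs, and the 8 muscle marker rows to 159 CPM (5 at 0) and 2437 CPM (2 at 0) in the same order; their part was not tested. By CPM 85.5% of the 124 miRNAs with at least 50 reads differed by 2-fold or more, 4.03% upwards and 81.5% downwards, and the median ratio was 0.196; 18.5% of these miRNAs had a higher ratio than miR-378a-3p and 6.45% a higher one than miR-378d.

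The authors' deposited tables divide the reads of each EV library by a whole number, 2 for serum Con A, 126 for serum saline, 16 for RAW Con A and 13 for RAW saline EVs. What these numbers count is not stated. Per the labels' protocols a plant spike-in was added to EV lysates, and whether the numbers are its reads is not stated either. The ratios by these divisors may therefore measure another quantity than the ratios of CPM. Any counting error of the divisors themselves, such as 2 for serum Con A EVs, is not covered. A direction of the serum EV difference in miR-378a-3p therefore cannot be given from these libraries.

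**Figure D4:**
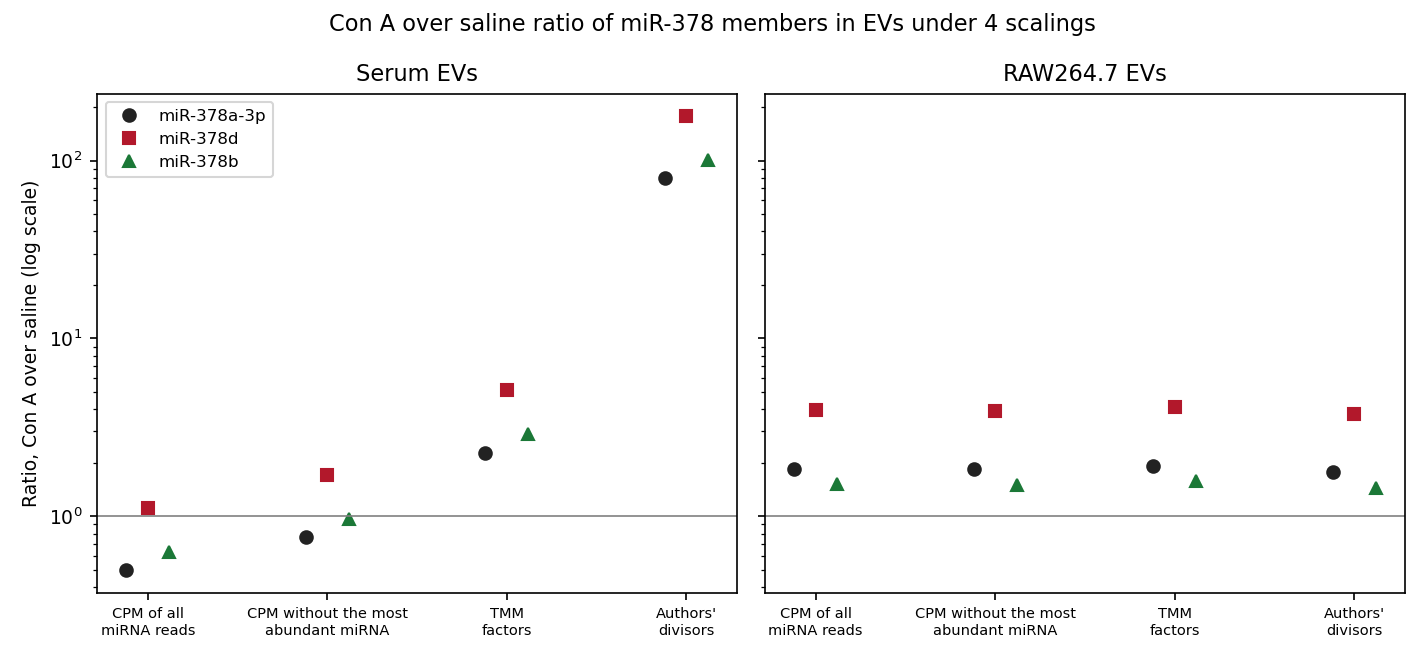
Ratio of Con A over saline EVs (y axis, log scale; line at 1) for 3 miR-378 members under 4 scalings (x axis), serum EVs on the left and RAW264.7 EVs on the right. The serum ratio of miR-378a-3p lies below 1 by CPM (0.498) and above 1 under TMM factors (2.28) and the authors' divisors (79.4), and that of miR-378b changes sides likewise, while the RAW264.7 ratios stay above 1 under all 4.

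The division of reads within the family does not depend on the scaling of a library, and it differed between Con A and saline EVs of both sources. miR-378d made up 5.98% of the summed reads of the 3 members in serum Con A EVs (79 of 1320; Wilson 95% interval 4.83% to 7.40%) and 2.77% in serum saline EVs (28 of 1011; 1.92% to 3.97%). In RAW Con A EVs it made up 5.71% (245 of 4289; 5.06% to 6.45%), against 2.77% in RAW saline EVs (53 of 1911; 2.13% to 3.61%). The intervals of Con A and saline EVs, which cover counting error only, did not overlap for either source. Between the same libraries, 85.5% of miRNAs with at least 50 reads differed by at least 2-fold in CPM in serum EVs and 53% in RAW264.7 EVs. How often other pairs of rows shifted this far against each other was not tested. Setting the same miR-378d reads against the relative miR-378c gave the same order. miR-378d had 79 reads and miR-378c 41 in serum Con A EVs, against 28 and 40 in serum saline EVs. In RAW Con A EVs they had 245 and 93, against 53 and 64 in RAW saline EVs. miR-378c itself had lower Con A over saline ratios by CPM than miR-378d. They were 0.405 against 1.12 in serum EVs and 1.24 against 3.93 in RAW264.7 EVs. These intervals compare 4 libraries, not the conditions, and the uncertain assignment of near-identical reads applies to them. The RAW Con A EV library also held the hepatocyte miRNAs given above, as the serum EVs did, and their part in the shares was not tested.

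In cells the share of miR-378d was 6.46% to 8.65% over the 12 libraries. Group means were 6.94% ± 0.559 after serum Con A EVs, 7.19% ± 0.520 after RAW Con A EVs, 7.64% ± 0.980 after RAW saline EVs and 7.49% ± 0.409 in PBS cells (SD, n = 3 each). These groups overlapped one another. All 12 cell libraries had a higher share than the 4 EV libraries. For the Con A EVs this holds for point values only. The Wilson interval of the lowest cell library (5.84% to 7.14%) overlaps those of both Con A EV libraries, while those of the saline EVs reach 3.97% at most. RNA of cells and EVs was extracted with different kits, per the labels' protocols, so source and kit cannot be told apart.

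**Figure D5:**
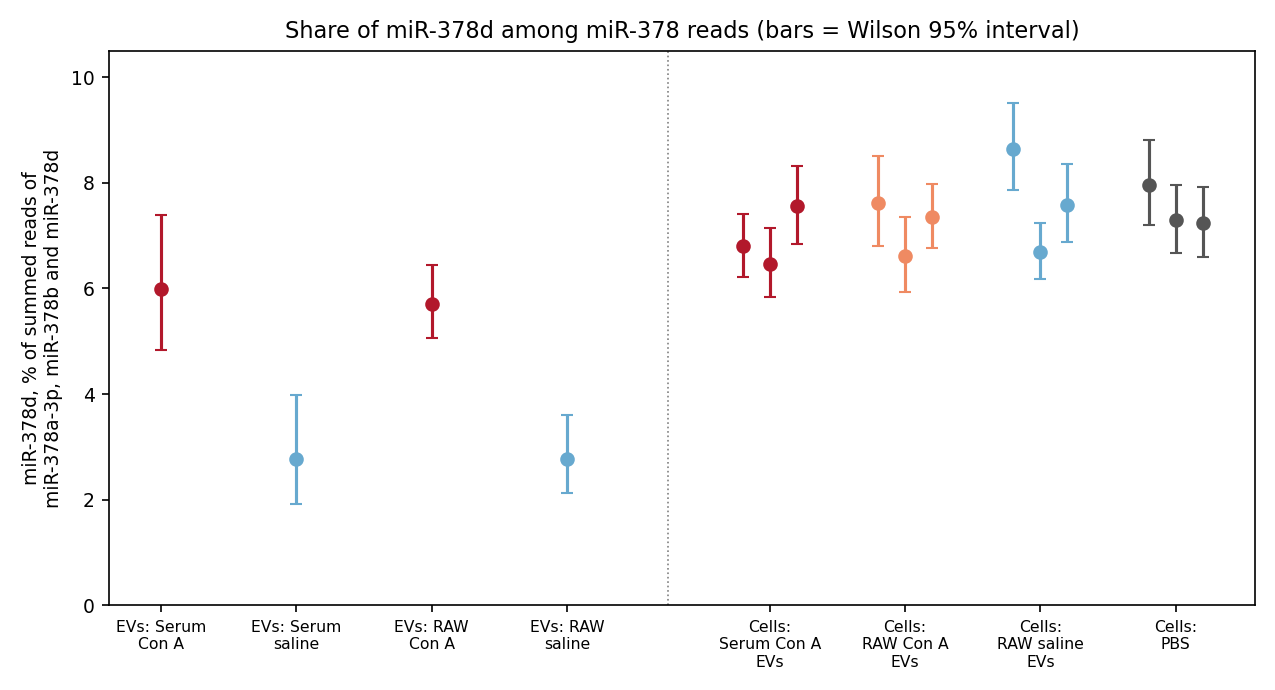
miR-378d as a percentage of the summed reads of miR-378a-3p, miR-378b and miR-378d (y axis, from 0) in the 4 EV libraries on the left and the 12 cell libraries on the right, with Wilson 95% intervals. Con A EVs show 5.98% (serum) and 5.71% (RAW264.7), saline EVs 2.77% in both sources, and cells 6.46% to 8.65%.

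Between sources, the CPM of the members was lower in serum EVs; the authors' divided values were not compared across sources. Serum Con A EVs had 0.124 of the CPM of RAW Con A EVs for miR-378a-3p (0.116 to 0.132), 0.130 for miR-378d (0.0997 to 0.168) and 0.202 for miR-378b (0.0748 to 0.4996). In this pair 81.7% of 120 miRNAs differed by at least 2-fold, 10.8% upwards and 70.8% downwards, and the median ratio was 0.242. The ratio of miR-378a-3p was 0.449 under TMM factors and 0.485 without the most abundant miRNA of each library (miR-148a-3p and miR-122-5p). Serum saline EVs had 0.460 of the CPM of RAW saline EVs for miR-378a-3p (0.425 to 0.497), 0.459 for miR-378d (0.280 to 0.739) and 0.483 for miR-378b (0.127 to 1.60). There 66.7% of 144 miRNAs differed by at least 2-fold, 36.8% upwards and 29.9% downwards, and the median ratio was 1.13.

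The passenger strand was rare in EVs: miR-378a-5p had 4 reads in serum Con A EVs, 1 in serum saline EVs, 2 in RAW Con A EVs and 17 in RAW saline EVs. Its ratio of RAW Con A over RAW saline EVs was 0.100 (95% interval 0.0112 to 0.422), the opposite direction to miR-378a-3p. With 2 and 17 reads, this pair fell short of the minimum of 50 reads set for the background. Of the miRNAs that reached it, 29.1% were at least 2-fold lower in RAW Con A EVs. The serum pair, with 4 and 1 reads, had a ratio of 1.58 (0.156 to 77.9), so no difference was detectable there at this depth.

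The miRNAs most like miR-378a-3p over the 4 EV libraries, of 175 compared by Pearson r of log2(CPM + 10), were miR-221-3p (r = 0.999), miR-409-3p (r = 0.998) and miR-1198-5p (r = 0.989). A ranking over 4 points that share their depth and composition describes these libraries only. miR-221-3p, for example, had 284 CPM in serum Con A EVs, 1007 in serum saline EVs, 15154 in RAW Con A EVs and 5453 in RAW saline EVs. Of the pathway lists, the most abundant rows in EVs included miR-21a-5p, at 5196, 48097, 27928 and 104398 CPM in the same order, and let-7c-5p, at 3081, 6130.3, 80024 and 7945 CPM.

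Set beside the mean of the 3 PBS cell libraries, in CPM of all miRNA reads, miR-378a-3p was 0.205 of the cell level in serum Con A EVs, 0.412 in serum saline EVs, 1.66 in RAW Con A EVs and 0.896 in RAW saline EVs. For miR-378d the values were 0.161, 0.144, 1.23 and 0.314. These ratios set different RNA kits side by side and move with the scaling of the EV libraries given above.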

How the data were processed

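The authors deposited raw counts, whole reads per mature mouse miRNA name, for 12 cell and 4 EV libraries. They also deposited tables of normalized signal values, which were the raw count times 1 factor per cell library or divided by 1 whole number per EV library, as tested on the values. Aligner, annotation and genome build: not given in the sources used here. edgeR appears with no version per the submitters' processing notes. Per the labels' protocols, a plant spike-in was added to EV lysates, and a NEBNext small RNA kit and a MiSeq were used.

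Cell counts were analysed in R 4.3.3 with edgeR 4.0.16: filterByExpr kept 229 of 941 rows (781 had reads), TMM scaling, 1 quasi-likelihood model over all 12 libraries, 2-sided tests and Benjamini-Hochberg adjustment over 229 miRNAs within each of 6 comparisons, threshold 0.05. limma 3.58.1 and DESeq2 1.42.0 served as alternatives. The test was run on simulated data with known changes. Replicates differed by more than sampling noise (chi-square per degree of freedom 1.84 to 8.30). Cell libraries held 174510 to 403332 miRNA reads. EV libraries, 114791 to 334285 reads, were set against each other as CPM of miRNA reads, with 95% intervals from the exact test of 2 Poisson counts and, for shares, Wilson intervals.

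miRNAs named were the members, other miR-378 rows, the 3 most like miR-378a-3p in cells and in EVs, up to 4 called members per list in comparisons with PBS, the most abundant list members in EVs, and marker miRNAs. Members, lists and tests were chosen with earlier results of these data known.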

Additional observations from a re-analysis of the deposited data

Results flagged for a closer look

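Con A over saline ratios of 2 members pointed in opposite directions in the 2 sources of EVs. By CPM, the ratio of miR-378a-3p was 0.498 in serum EVs and 1.85 in RAW264.7 EVs. The ratio of miR-378b was 0.632 in serum EVs and 1.51 in RAW264.7 EVs, and both of its intervals include 1. With 1 library per preparation, the difference between sources was not tested. Under TMM factors the serum ratios were 2.28 for miR-378a-3p and 2.89 for miR-378b, so that the opposite directions are seen by CPM and not under that scaling.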

How the results depend on the processing

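For miR-378a-3p in cells, serum Con A EVs over PBS passed the threshold with upper-quartile scaling (-0.19) and with the authors' factors (-0.18, an alternative added after seeing the data). RAW Con A EVs over PBS turned negative with library size alone (-0.0085). RAW saline EVs over PBS no longer passed with library size alone (0.10), upper-quartile scaling (0.12), no filter (0.20) or the authors' factors (0.16). With library size alone, serum Con A EVs no longer passed against RAW Con A EVs (-0.043) or RAW saline EVs (-0.15). Leaving out 1 library in turn gave -0.16 to -0.07 for serum Con A EVs over PBS, 0.07 to 0.15 for RAW Con A EVs over PBS, 0.17 to 0.27 for RAW saline EVs over PBS, -0.16 to -0.05 for RAW Con A over RAW saline EVs, -0.29 to -0.19 for serum Con A over RAW Con A EVs and -0.42 to -0.28 for serum Con A over RAW saline EVs. miR-378d in RAW Con A EVs over PBS turned negative with library size alone (-0.081) and without RAW Con A EV replicate 1, in a range of -0.032 to 0.11 over the fits without 1 library. miR-378c in serum Con A EVs over PBS turned positive with library size alone (0.0058) and without serum Con A EV replicate 3, in a range of -0.13 to 0.0073. The causes were not tested.

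The numbers of called miRNAs moved by over 1.5 times in 3 comparisons. RAW Con A EVs over PBS gave 26 calls, and 16 without the filter or 10 to 17 without 1 library. RAW saline EVs over PBS gave 32, and 51 with library size alone. RAW Con A over RAW saline EVs gave 8, and 5 with library size alone, 4 with upper-quartile scaling, 4 with DESeq2, 3 with only the groups compared and 1 to 8 without 1 library. Library size alone also moved the split of calls towards higher in serum Con A EVs over PBS (33 higher, 21 lower, against 18 and 31) and towards lower in RAW saline EVs over PBS (9 and 42, against 17 and 15) and RAW Con A EVs over PBS (6 and 30, against 14 and 12). It moved it towards higher in serum Con A over RAW Con A EVs (85 and 19, against 41 and 39) and over RAW saline EVs (77 and 27, against 51 and 44). Upper-quartile scaling gave 13 higher and 37 lower, 8 and 13, and 10 and 32 for serum Con A, RAW Con A and RAW saline EVs over PBS.

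In EVs, serum Con A over saline EVs gave, for miR-378a-3p, 2.28 with TMM factors and 79.4 with the authors' divisors. It was 0.764 without miR-148a-3p, the most abundant miRNA of both libraries, with miR-122-5p kept in. For miR-378b the values were 2.89 and 100.8, and for miR-378d 5.10 and 177.75, with TMM factors and the authors' divisors. Serum over RAW saline EVs gave 0.500 with TMM factors and 0.424 without the most abundant miRNA of each library for miR-378a-3p. Serum over RAW Con A EVs gave 0.449 and 0.485 for miR-378a-3p, 0.734 and 0.793 for miR-378b, and 0.473 and 0.511 for miR-378d under the same 2 settings. Shares of miR-378d in cells without 1 library stayed within 6.63% to 7.17% after serum Con A EVs, 6.98% to 7.48% after RAW Con A EVs, 7.14% to 8.11% after RAW saline EVs and 7.26% to 7.63% in PBS cells. The few reads of miR-378b, 5 to 16 in EVs, limit its ratios.

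The replicate numbers did not pair the samples: correlations of same-numbered libraries ran from -0.21 to 0.20. With the replicate block, 23 of 24 results of the family kept their call; miR-378d in RAW saline EVs over PBS passed (0.23, adjusted p = 0.0294).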
